A study of Mus musculus with 9 samples.

Results

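The cadherins and protocadherins are calcium-dependent adhesion proteins of the cell surface. The genes described here are those whose symbol is Cdh followed by a number, or starts with Pcdh, in the deposited tables of counts and FPKM (reads scaled to gene length and library size). They were 58 of 38197 symbols. They comprised 17 classical cadherins (4 of type I and 13 of type II), 5 other numbered cadherins, 12 non-clustered protocadherins and 24 clustered protocadherins (1 Pcdha, 22 Pcdhb and 1 Pcdhg symbol). Classical cadherins bind the same protein on a neighbouring cell and link through catenins to actin, and in the neural tube N-cadherin (Cdh2) holds the junctions of the neuroepithelium together. Non-clustered protocadherins of the delta groups signal to the cytoskeleton, and several of them recruit the WAVE actin regulators. The clustered protocadherins lie in tandem in the Pcdha, Pcdhb and Pcdhg arrays, where each neuron uses a small set of promoters as an identity code. In the alpha and gamma arrays each variable exon is spliced to exons that all genes of the array share, whereas each beta gene stands on its own.

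Wild-type mouse embryonic stem cells of the 129 strain (the E14.1 line) were grown as a monolayer and turned into ventral hindbrain neural stem cells (NSCs) with retinoic acid and SAG, a Smoothened agonist, given until 3DDC by the sample labels and until 3.5DDC by the published methods. Cells carrying the progenitor antigen Prominin-1 were collected with magnetic beads at 4.5DDC, 5.5DDC and 6.5DDC (days in differentiation conditions), and polyadenylated RNA was sequenced in 3 libraries per time point, 9 in all. Sampling times read 4.5, 5.5 and 6.5 in one label field, but 4, 5 and 6 days in a second field. All libraries come from 1 cell line under the same treatment, and the published methods define n as biological replicates without saying whether these libraries are separate cultures, so p-values may measure technical spread. Counts per library summed to between 11066568 and 25506193, with medians of 14390488 at 4.5DDC, 11573523 at 5.5DDC and 15913821 at 6.5DDC. Cadherin and protocadherin genes together took 0.156%, 0.156% and 0.157% of the counts in replicates 1, 2 and 3 at 4.5DDC. They took 0.203%, 0.222% and 0.225% at 5.5DDC, and 0.241%, 0.240% and 0.252% at 6.5DDC. The share was thus higher at each later time point, with no overlap between time points.

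The replicate 1 libraries stood apart from replicates 2 and 3. Of 45 members with enough counts to be tested, 30 (66.7%) had their lowest FPKM in replicate 1 at each of the 3 time points, against 1746 (11.8%) of all 14742 genes tested. By class these were 5 of 11 classical cadherins, 5 of 10 non-clustered protocadherins and 19 of 23 clustered protocadherins, and the sole other numbered cadherin tested. For this reason values are given for each library, and changes of many named genes also within replicate 1 and within replicates 2 and 3.

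Between the first and last time points, 4.5DDC and 6.5DDC, 12 of the 45 members tested changed at an adjusted p under 0.05 in edgeR's quasi-likelihood test, against 18.7% of all genes. All 12 rose, against 9.21% of all genes higher and 9.53% lower. No member was called lower in this fit of all libraries without a block. At an unadjusted p under 0.05, 24 members were higher and 1 was lower, against 17.5% and 17.9% of all genes. With DESeq2, 18 were higher and 1 lower (24.9% of all genes changed), and limma voom gave 13 and 0 (18.0% of all genes). Those that rose were Cdh2, Cdh4 and Cdh6 among the classical cadherins, Cdh13 among the other numbered cadherins, Pcdh8, Pcdh10 and Pcdh18 among the non-clustered protocadherins, and Pcdhb14, Pcdhb17, Pcdhb18, Pcdhb19 and Pcdhb22 among the clustered ones. In bulk RNA, more or fewer cells of a type cannot be told apart from more or less RNA per cell. The FPKM of the 6.5DDC libraries all lay above those of 4.5DDC for 15 of the 45 members (17.9% of all genes), and all lay below for 1 (16.7% of all genes). Within replicates 2 and 3 alone, 31 of 46 members were higher and 2 were lower, which is 71.7% changed against 31.3% of all genes.

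The classes differed in how their members were spread around 0. Median log2 fold changes over the span were 0.13 over 11 classical cadherins, 1.38 over 10 non-clustered protocadherins and 1.27 over 23 clustered protocadherins, beside 0.0040 over all genes tested. With limma on log2 FPKM plus 1 the non-clustered and clustered medians were 0.79 and 0.82, and with 0.1 added instead they were 0.86 and 1.15. Of the classical cadherins 6 had a positive and 5 a negative value, and 3 of 11 were called. Of the non-clustered protocadherins 9 were positive and 1 negative, and 3 of 10 were called. All 23 clustered protocadherins tested were positive. By edgeR with all libraries and no block 5 were called, which is 21.7% and close to the 18.7% of all genes. Other fits called more of the 23: 11 by DESeq2 (24.9% of all genes), 21 with a replicate block (23.2%) and 20 within replicates 2 and 3 (31.3%). Between 4.5DDC and 6.5DDC, the deviations of same-numbered libraries from their time point mean correlated at 0.383, -0.0396 and -0.215. The replicate number therefore did not pair these times, and blocked calls over the span, here and below, are not paired results. Of all genes 7406 were positive and 7336 negative. The medians within replicates 1, 2 and 3 were 0.51, -0.26 and -0.0044 for the classical cadherins, so that class had no common direction. They were 1.13, 1.12 and 1.15 for the non-clustered and 1.05, 1.30 and 1.25 for the clustered protocadherins.

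**Figure D1:**
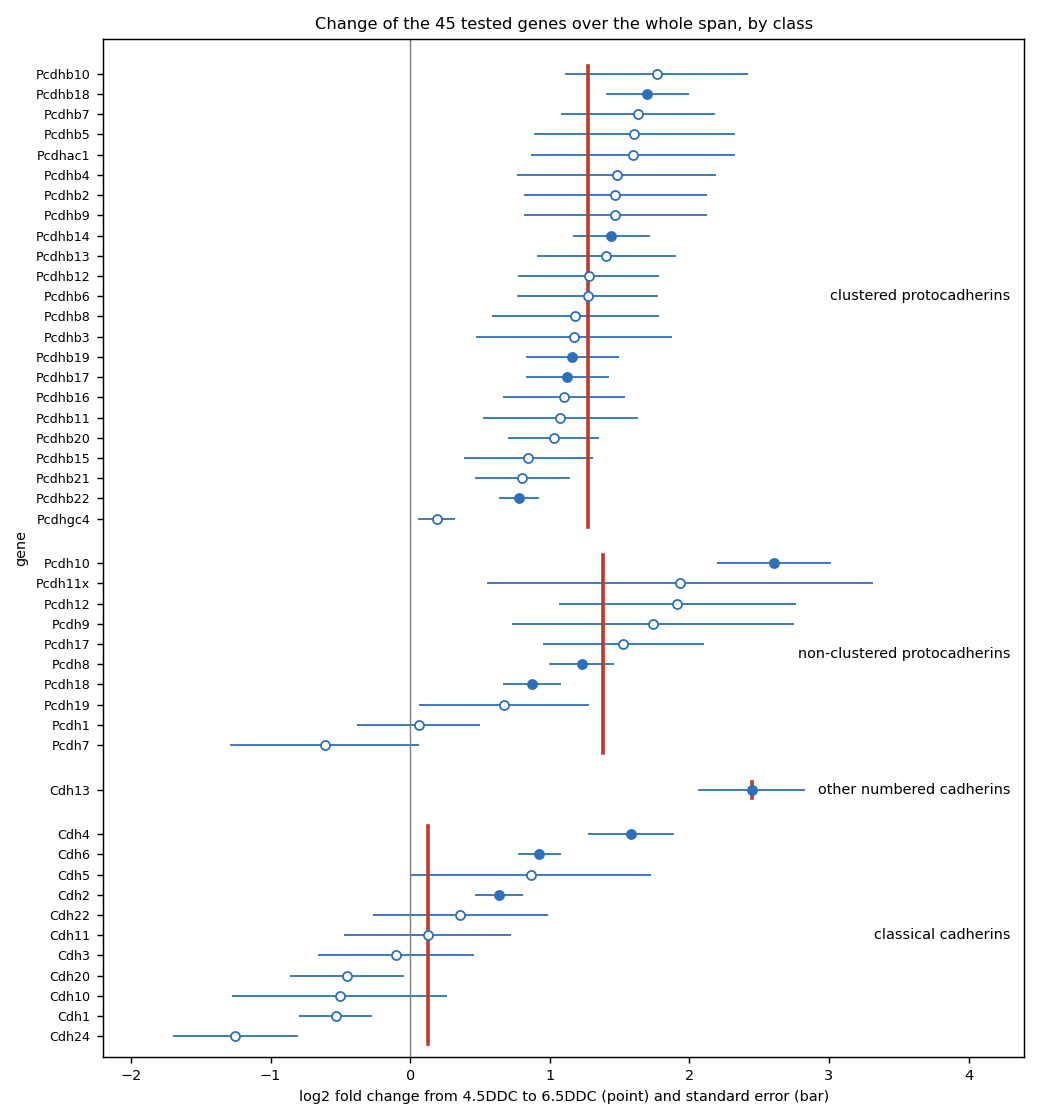
Log2 fold change from 4.5DDC to 6.5DDC (horizontal axis) of the 45 tested genes, grouped by class; bars are standard errors, filled points passed the test at an adjusted p under 0.05 and red lines are class medians. All 23 clustered genes lie above 0, while the 11 classical cadherins lie on both sides.

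Among the type I cadherins, Cdh2, the principal cadherin of neural progenitors, had the highest level of all members. Its FPKM in replicates 1, 2 and 3 was 129, 104 and 118 at 4.5DDC, 164, 143 and 141 at 5.5DDC, and 214, 166 and 158 at 6.5DDC. Every 6.5DDC library lay above every 4.5DDC library, and replicate 1 was the highest at each time point. Over the span it rose by 0.64 on the log2 scale (SE 0.17, edgeR adjusted p = 0.032), with 0.84 in replicate 1 alone and 0.51 in the other 2 replicates. The call was close to the threshold. It was lost in a fit of the 6 libraries compared (adjusted p = 0.0545), without replicate 1, 2 or 3 at 4.5DDC (adjusted p = 0.053, 0.12 and 0.058), without replicate 2 or 3 at 5.5DDC (0.057 and 0.056) and without replicate 1 or 2 at 6.5DDC (0.071 and 0.073). With 20 alternatives in all, its adjusted p ranged from 0.0063 to 0.12.

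Cdh4 (R-cadherin), another type I cadherin of the nervous system, measured 4.08, 4.48 and 4.14 FPKM at 4.5DDC. It measured 6.22, 13.0 and 13.8 at 5.5DDC, and 8.84, 12.3 and 17.7 at 6.5DDC. The 3 libraries of 4.5DDC were close together, and replicate 1 was the lowest at both later time points while still above all of 4.5DDC. Cdh4 rose by 1.58 (SE 0.31, adjusted p = 0.0088), which was 1.16 in replicate 1 alone and 1.74 in the other 2, and all 20 alternatives kept the call. Cdh1 (E-cadherin), which holds non-neural epithelia together, is named because it was the sole member whose 6.5DDC libraries all lay below those of 4.5DDC, a choice made after its values were seen. It measured 8.71, 9.19 and 10.9 FPKM at 4.5DDC, 6.20, 11.9 and 13.3 at 5.5DDC, and 6.55, 7.40 and 6.04 at 6.5DDC. The 4.5DDC and 6.5DDC libraries did not overlap, but the difference of -0.53 on the log2 scale (SE 0.26) missed the threshold with an edgeR adjusted p of 0.18. It passed in 1 of 20 alternatives, within replicates 2 and 3 (-0.62, adjusted p = 0.042), and the smallest and largest adjusted p were 0.042 and 0.38.

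Type II cadherins mark subsets of neural progenitors and neurons. Cdh6, the most abundant of them, measured 47.2, 39.2 and 42.7 FPKM at 4.5DDC, 75.2, 69.7 and 75.1 at 5.5DDC, and 98.3, 74.6 and 74.4 at 6.5DDC. Its 5.5DDC and 6.5DDC libraries were all above those of 4.5DDC, whereas 5.5DDC and 6.5DDC overlapped. Its rise over the span was 0.93 (SE 0.16, adjusted p = 0.0051), with 1.099 in replicate 1 alone and 0.82 in the other 2, and all 20 alternatives called it. Cdh11, a cadherin of mesenchyme and of some neurons, measured 7.32, 22.8 and 21.7 FPKM at 4.5DDC, 5.98, 21.7 and 21.9 at 5.5DDC, and 8.78, 25.1 and 23.8 at 6.5DDC. Replicate 1 was far below the others at every time point, and the time points overlapped. The log2 fold change was 0.13 (SE 0.60, adjusted p = 0.90).

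Cdh24, a type II cadherin, had the largest negative change of the classical cadherins. It measured 10.95, 7.01 and 4.86 FPKM at 4.5DDC, 8.75, 5.36 and 6.26 at 5.5DDC, and 5.49, 1.51 and 2.64 at 6.5DDC. Replicate 1 was the highest at each time point, and its 6.5DDC value overlapped the 4.5DDC values of the others. The log2 fold change of -1.25 (SE 0.45) had an adjusted p of 0.079. It was called without replicate 1 of 6.5DDC (-1.91, adjusted p = 0.011), within replicates 2 and 3 (-1.55, 0.0050) and by DESeq2 (-1.24, 0.026), among 4 of 20 alternatives that called it, with adjusted p-values from 0.0050 to 0.22. The other 4 type II cadherins tested, which include the endothelial Cdh5, had log2 fold changes between -0.51 and 0.87 and none was called.

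Of the other numbered cadherins, Cdh13 (T-cadherin) lacks a transmembrane and cytoplasmic part and is held by a lipid anchor. It measured 2.24, 3.27 and 2.68 FPKM at 4.5DDC, 3.95, 9.45 and 9.37 at 5.5DDC, and 7.97, 13.0 and 15.9 at 6.5DDC. Each later time point was above 4.5DDC in all libraries, and replicate 1 was the lowest at each time. Cdh13 rose by 2.45 (SE 0.38, adjusted p = 0.0040), by 1.84 in replicate 1 alone and by 2.62 in the other 2, and all 20 alternatives called it. Cdh26 was the next most abundant of this class, and its highest library held 0.477 FPKM from 7 counts. In all, 13 members did not pass the filter on low counts. These were 6 of the 13 type II cadherins, 4 of the 5 other numbered cadherins, Pcdh15 and Pcdh20, and Pcdhb1. None of them had more than 21 counts in any library, a maximum reached by Cdh8. Cdh19, a type II cadherin of Schwann cell precursors, had 0 counts in all 9 libraries, which allows up to between 0.118 and 0.271 CPM (counts scaled to the library total) in a library, from 3 counts and counting error only.

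**Figure D2:**
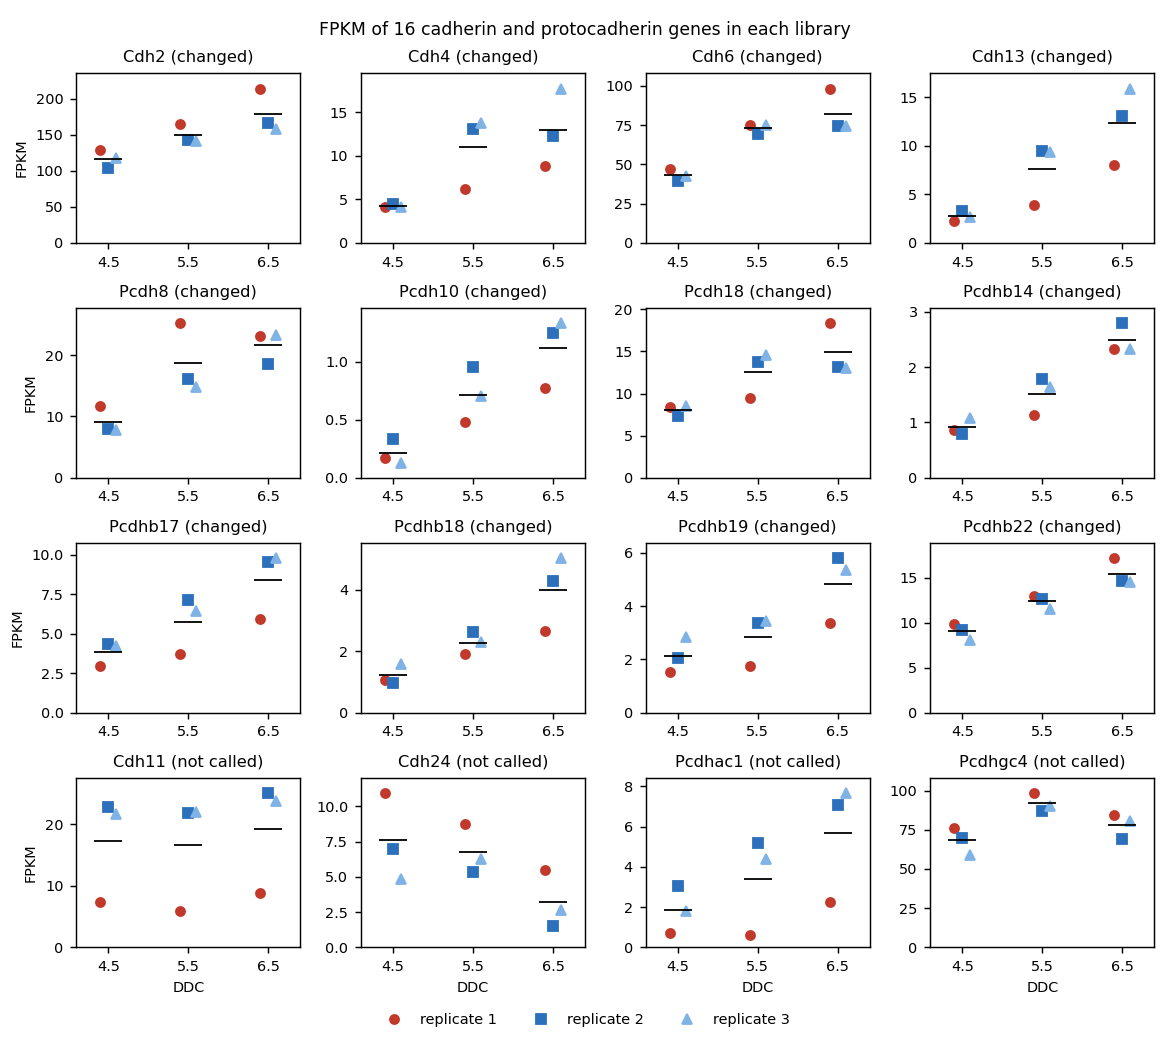
FPKM (vertical axis) of 16 genes in each library against DDC, with symbols for the replicate number and black lines for the mean of 3 libraries. The 12 genes that changed are higher at 6.5DDC than at 4.5DDC in every library. Cdh11 and Pcdhac1 are lowest in replicate 1 at each time point, as are Cdh4, Cdh13, Pcdhb17 and Pcdhb19 among the 12.

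The delta2 protocadherins, which include the binders of the WAVE complex, held the largest change of all members by edgeR with all libraries and no block. Pcdh8, known for its activity-regulated role at synapses and in tissue separation in the early embryo, measured 11.7, 7.93 and 7.86 FPKM at 4.5DDC, 25.1, 16.2 and 14.7 at 5.5DDC, and 23.1, 18.5 and 23.2 at 6.5DDC. All later libraries were above those of 4.5DDC, with replicate 1 the highest at the first 2 time points. Pcdh8 rose by 1.23 (SE 0.23, adjusted p = 0.0081), with 1.04 in replicate 1 alone and 1.35 in the other 2. The annotation places 9.61% of its exonic bases opposite exons of Gm9748, and the counting is not stated to use strand, so reads of that gene cannot be told apart from it there.

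Pcdh10 (OL-protocadherin), which acts in axon growth, had the largest fold change of the members tested in that fit. Cdh13 was above it without replicate 3 of 4.5DDC (2.52 against 2.41). It was also above it by limma on log2 FPKM plus 1 (1.80 against 0.80) and plus 0.1 (2.09 against 1.99). Pcdh10 measured 0.173, 0.333 and 0.129 FPKM at 4.5DDC, 0.480, 0.952 and 0.702 at 5.5DDC, and 0.775, 1.24 and 1.33 at 6.5DDC. The level remained low, but no library of a later time point reached down to 4.5DDC. Its rise was 2.61 (SE 0.41, adjusted p = 0.0040), with 2.097 in replicate 1 alone and 2.74 in the other 2. Pcdh18 measured 8.37, 7.39 and 8.49 FPKM at 4.5DDC, 9.49, 13.7 and 14.5 at 5.5DDC, and 18.3, 13.2 and 13.1 at 6.5DDC. Its replicate 1 was the lowest of 5.5DDC and the highest of 6.5DDC. Pcdh18 rose by 0.87 (SE 0.21, adjusted p = 0.019), with 1.19 in replicate 1 alone and 0.68 in the other 2. Of 20 alternatives 1 lost the call, the fit that leaves out replicate 2 of 4.5DDC (0.79), and their adjusted p-values lay between 0.0014 and 0.080. The Pcdh8 and Pcdh10 calls held in all 20. The other 2 delta2 genes, Pcdh17 and Pcdh19, stayed under 0.4 FPKM and were not called by edgeR with all libraries and no block. Pcdh17 was called higher in 3 of 18 alternatives, without replicate 1 of 6.5DDC, within replicates 2 and 3 and with a replicate block, and Pcdh19 in none.

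Of the 4 delta1 protocadherins, 0 were called over the span by edgeR with all libraries and no block, by DESeq2 or by limma voom, and 0 had an unadjusted p under 0.05. Pcdh9 and Pcdh11x were called higher within replicates 2 and 3 and with a replicate block. Pcdh1, the most abundant, measured 2.07, 6.02 and 3.15 FPKM at 4.5DDC, 2.94, 4.91 and 4.76 at 5.5DDC, and 1.88, 3.76 and 5.49 at 6.5DDC, and the time points overlapped (log2 fold change 0.06, SE 0.44). Pcdh7, which had the sole negative estimate of the non-clustered genes, measured 0.167, 1.05 and 0.710 FPKM at 4.5DDC, 0.191, 0.509 and 0.800 at 5.5DDC, and 0.257, 0.527 and 0.553 at 6.5DDC. It overlapped too, with a log2 fold change of -0.61 (SE 0.67, adjusted p = 0.55) that was 0.64 in replicate 1 alone and -0.83 in the other 2. With 1 library left out, the value of Pcdh7 lay between -1.09 (without replicate 1 of 4.5DDC) and -0.11 (without replicate 2 of 4.5DDC). Of its exonic bases 21.1% lie opposite 4932441J04Rik, whose reads cannot be told apart there. Replicate 1 was the lowest at each time point for all 4 delta1 genes. Pcdh12, an endothelial protocadherin of the remaining group, measured 0.0312, 0.249 and 0.298 FPKM at 4.5DDC, 0.0603, 0.619 and 0.648 at 5.5DDC, and 0.785, 0.749 and 0.641 at 6.5DDC. The 6.5DDC libraries were all above those of 4.5DDC, yet the log2 fold change of 1.91 (SE 0.85) had an adjusted p of 0.14. It was 4.07 in replicate 1 alone and 1.29 in the other 2, where it was called (adjusted p = 0.013), as it was without replicate 1 of 5.5DDC (1.92, 0.046). Of 18 alternatives 3 called it, with adjusted p-values from 0.013 to 0.26. Pcdh15, a protein of hair cell tip links, did not pass the filter and had at most 6 counts in a library.

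RefSeq promoter entries were found for 21 of the 58 members, and for 4 of the 12 that rose. These 4 rose together and are shown because a reader can compare their start regions. Each is the 250 bases before the start in GRCm38.p6, read on the gene's own strand. They are chr15:13173676-13173925 on the minus strand for Cdh6, chr14:79771313-79771562 on the minus strand for Pcdh8, chr3:45378148-45378397 on the plus strand for Pcdh10 and chr3:49757317-49757566 on the minus strand for Pcdh18. Capitals mark CCAAT and GGGCGGG on either strand.
Cdh6: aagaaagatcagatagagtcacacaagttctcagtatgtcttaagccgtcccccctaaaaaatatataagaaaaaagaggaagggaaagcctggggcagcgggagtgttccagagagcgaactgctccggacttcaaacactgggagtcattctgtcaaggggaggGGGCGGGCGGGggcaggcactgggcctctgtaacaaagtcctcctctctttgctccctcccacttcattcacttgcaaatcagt
Pcdh8: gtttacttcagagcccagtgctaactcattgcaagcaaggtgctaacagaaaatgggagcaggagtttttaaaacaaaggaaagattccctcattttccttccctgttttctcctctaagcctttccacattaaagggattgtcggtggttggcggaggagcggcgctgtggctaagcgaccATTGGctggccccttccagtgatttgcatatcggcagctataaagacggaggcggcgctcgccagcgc
Pcdh10: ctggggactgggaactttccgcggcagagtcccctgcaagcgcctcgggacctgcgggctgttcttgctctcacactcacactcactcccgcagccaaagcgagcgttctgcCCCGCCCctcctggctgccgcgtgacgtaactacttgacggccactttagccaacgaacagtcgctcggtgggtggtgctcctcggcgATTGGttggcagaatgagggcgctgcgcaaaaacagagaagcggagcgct
Pcdh18: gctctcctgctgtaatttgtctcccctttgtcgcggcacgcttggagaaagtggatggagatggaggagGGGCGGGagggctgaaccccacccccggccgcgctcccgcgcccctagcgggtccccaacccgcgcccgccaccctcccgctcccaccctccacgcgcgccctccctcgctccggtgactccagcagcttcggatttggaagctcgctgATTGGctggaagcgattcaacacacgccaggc
Pcdh8, Pcdh10 and Pcdh18 each held 1 CCAAT, in each case as ATTGG on the strand shown, and Cdh6 held none. GGGCGGG occurred once in Pcdh10 and in Pcdh18, was absent from Pcdh8, and was found in Cdh6 at 2 places that overlap. Over all 32851 promoters of the same length, 33.8% held CCAAT and 23.4% held GGGCGGG, and of the 24 member promoters 15 and 8 did. The Gli consensus TGGGTGGTC was in 0.225% of all promoters and in none of the 24, and the E-box CACCTG was in 17.2% of all and in 3 of the 24. The 24 belong to 21 members, since Cdh7 and Pcdh9 have several entries each, and none is of a clustered protocadherin. The Pcdh9 entries overlap, and Cdh7 entries are among the 3 with an E-box. The 4 promoters held 6, 11, 22 and 23 CG pairs in Cdh6, Pcdh8, Pcdh10 and Pcdh18, beside a median of 6 over all promoters. A match of letters is a description and does not show that a factor binds there.

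The tables do not resolve the clustered genes equally. The annotation (GENCODE M21, GRCm38, chromosome 18) holds 13 Pcdha, 22 Pcdhb and 22 Pcdhg symbols, of which the tables hold 1, 22 and 1. The alpha symbol is Pcdhac1, a C-type gene with 5419 exonic bases, of which 2860 (52.8%) are shared on the same strand with 12 other annotated genes. The gamma symbol is Pcdhgc4, with 5596 exonic bases, of which 2119 (37.9%) are shared with 25 others. The length implied by counts and FPKM was 6317 bases for Pcdhac1 and 5988 for Pcdhgc4. They do not share 2559 and 3477 bases. The same measure was 0.35 of the exonic bases for Cdh13 and 1.29 for Pcdhb16, which share no exon. It therefore cannot show which exons were counted. How reads of shared exons were treated is not stated, so reads of the other alpha and gamma genes may be included in these symbols. They are called the Pcdhac1 row and the Pcdhgc4 row here. The beta genes share no exon except for 455 bases between Pcdhb21 and Pcdhb22. Of their 50-base words, the read length, up to 11.99% (in Pcdhb12) also occur in another member, so part of their reads may be assigned to a near copy or left out. Pcdhb12 also lies opposite Gm37446 over 63.5% of its exonic bases.

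The Pcdhgc4 row had the second highest mean level of all members at 4.5DDC and 5.5DDC, while at 6.5DDC the mean of Cdh6 was higher. It measured 76.2, 70.0 and 58.8 FPKM at 4.5DDC, 98.5, 87.0 and 90.3 at 5.5DDC, and 84.6, 69.0 and 80.8 at 6.5DDC. All 5.5DDC libraries were above all others, and 4.5DDC overlapped 6.5DDC. The log2 fold change over the span was 0.19 (SE 0.14, adjusted p = 0.34), the smallest of the clustered genes. The Pcdhac1 row measured 0.690, 3.03 and 1.78 FPKM at 4.5DDC, 0.634, 5.19 and 4.39 at 5.5DDC, and 2.27, 7.07 and 7.67 at 6.5DDC. Replicate 1 was the lowest at each time point and at 6.5DDC lay among the 4.5DDC values of the other replicates. Its log2 fold change of 1.60 (SE 0.73, adjusted p = 0.15) was 1.76 in replicate 1 alone and 1.55 in the other 2, where it was called (adjusted p = 0.0020). The Pcdhac1 row was also called with a replicate block (1.66, edgeR adjusted p = 0.0045). Over 20 alternatives the lowest and highest adjusted p were 0.0020 and 0.32.

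The beta genes shared 1 direction in their estimates. The 22 Pcdhb genes summed to 26.7, 40.02 and 40.5 FPKM in replicates 1, 2 and 3 at 4.5DDC, 35.4, 63.3 and 62.0 at 5.5DDC, and 53.0, 91.4 and 94.3 at 6.5DDC. Within each replicate number the sum was higher at each later time point, and replicate 1 was always the lowest. Their summed CPM had log2 changes of 1.03, 1.29 and 1.05 over the span in replicates 1, 2 and 3. All 21 tested beta genes had positive log2 fold changes, from 0.78 to 1.77 with a median of 1.27, and all 21 were also positive within replicate 1.

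Pcdhb22, the most abundant beta gene, measured 9.80, 9.15 and 8.08 FPKM at 4.5DDC, 13.0, 12.6 and 11.5 at 5.5DDC, and 17.1, 14.6 and 14.5 at 6.5DDC. The 3 time points did not overlap, and replicate 1 was the highest at each. Pcdhb17 measured 2.92, 4.33 and 4.25 at 4.5DDC, 3.72, 7.12 and 6.46 at 5.5DDC, and 5.91, 9.53 and 9.79 at 6.5DDC. Pcdhb19 measured 1.53, 2.05 and 2.83, then 1.75, 3.38 and 3.43, then 3.38, 5.80 and 5.35 FPKM at the 3 time points. For both of these replicate 1 was the lowest at each time, but its 6.5DDC value was above all of 4.5DDC. Pcdhb14 measured 0.859, 0.791 and 1.07 FPKM at 4.5DDC, 1.13, 1.78 and 1.64 at 5.5DDC, and 2.33, 2.79 and 2.32 at 6.5DDC. Pcdhb18 measured 1.07, 0.962 and 1.59, then 1.91, 2.62 and 2.30, then 2.65, 4.29 and 5.02 FPKM. For Pcdhb14 and Pcdhb18 no 2 time points overlapped.

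The log2 fold changes from 4.5DDC to 6.5DDC were 0.78 for Pcdhb22 (SE 0.14, adjusted p = 0.0070), 1.44 for Pcdhb14 (SE 0.28, 0.0086) and 1.70 for Pcdhb18 (SE 0.30, 0.0061), and these 3 calls held in all 20 alternatives. Pcdhb17 had 1.13 (SE 0.30, adjusted p = 0.028) and Pcdhb19 1.16 (SE 0.33, adjusted p = 0.038), and both calls depended on single libraries. Pcdhb17 was lost without replicate 1 or 2 of 4.5DDC (adjusted p = 0.079 and 0.078) and without replicate 2 or 3 of 6.5DDC (0.098 and 0.069). Pcdhb19 was lost without replicate 1 or 2 of 4.5DDC (0.10 and 0.13), replicate 2 or 3 of 5.5DDC (0.054 and 0.054) and replicate 2 or 3 of 6.5DDC (0.13 and 0.081), and by limma on log2 FPKM. Their adjusted p ranged from 0.0023 to 0.098 and from 0.0037 to 0.13 over 20 alternatives. Pcdhb10 had the largest estimate among the beta genes, 1.77 (SE 0.65, adjusted p = 0.087), and 5 of 20 alternatives called it (adjusted p from 0.0016 to 0.22). Among these were DESeq2 (0.024), the fits without replicate 1 of 5.5DDC (0.036) or of 6.5DDC (2.14, 0.042) and that within replicates 2 and 3 (0.0016). Pcdhb10 measured 0.444, 1.41 and 1.03 FPKM at 4.5DDC, 0.591, 2.67 and 2.47 at 5.5DDC, and 1.33, 4.17 and 4.46 at 6.5DDC, so that replicate 1 at 6.5DDC lay within the 4.5DDC range. The number of clustered genes called differed with the library left out, as did the share of all genes called. It was 14 without replicate 1 of 6.5DDC (20.7% of all genes), 8 without replicate 1 of 5.5DDC (20.9%) and 7 without replicate 3 of 4.5DDC (13.4%). It was 4 without replicate 2 or 3 of 5.5DDC (13.0% and 13.4%), 3 without replicate 1 or 2 of 4.5DDC (14.8% and 7.61%) and 3 without replicate 2 or 3 of 6.5DDC (7.56% and 13.9%). In the fits that gave 3 or 4, the share of all genes called was also under 18.7%. Within replicates 2 and 3 it was 20, against 31.3% of all genes.

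The offset of replicate 1 differed along the beta cluster, a pattern noticed after the values were seen and not tested. Taken as the log2 ratio of its FPKM (plus 0.1) to the mean of the other replicates, averaged over the 3 time points, it lay between -1.74 and -1.12 in the 10 tested genes among the first 11 in chromosome order (Pcdhb1 to Pcdhb11). In the last 11 (Pcdhb12 to Pcdhb22) it lay between -1.12 and 0.18. The median was -1.44 in the first set and -0.70 in the second. Medians of the log2 fold change over the span were 1.47 and 1.13, while the median standard error was 0.65 and 0.33. All 5 beta genes called by edgeR with all libraries and no block were in the second set. This split also held with limma voom and in most fits with 1 library left out, but not in every fit. DESeq2 also called Pcdhb6, Pcdhb7 and Pcdhb10 of the first set, and all 10 were called within replicates 2 and 3. Within replicate 1 the changes ranged from 0.15 to 1.56 in the first set and from 0.27 to 1.47 in the second. Within replicates 2 and 3 they ranged from 1.13 to 1.78 and from 0.72 to 1.82.

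**Figure D3:**
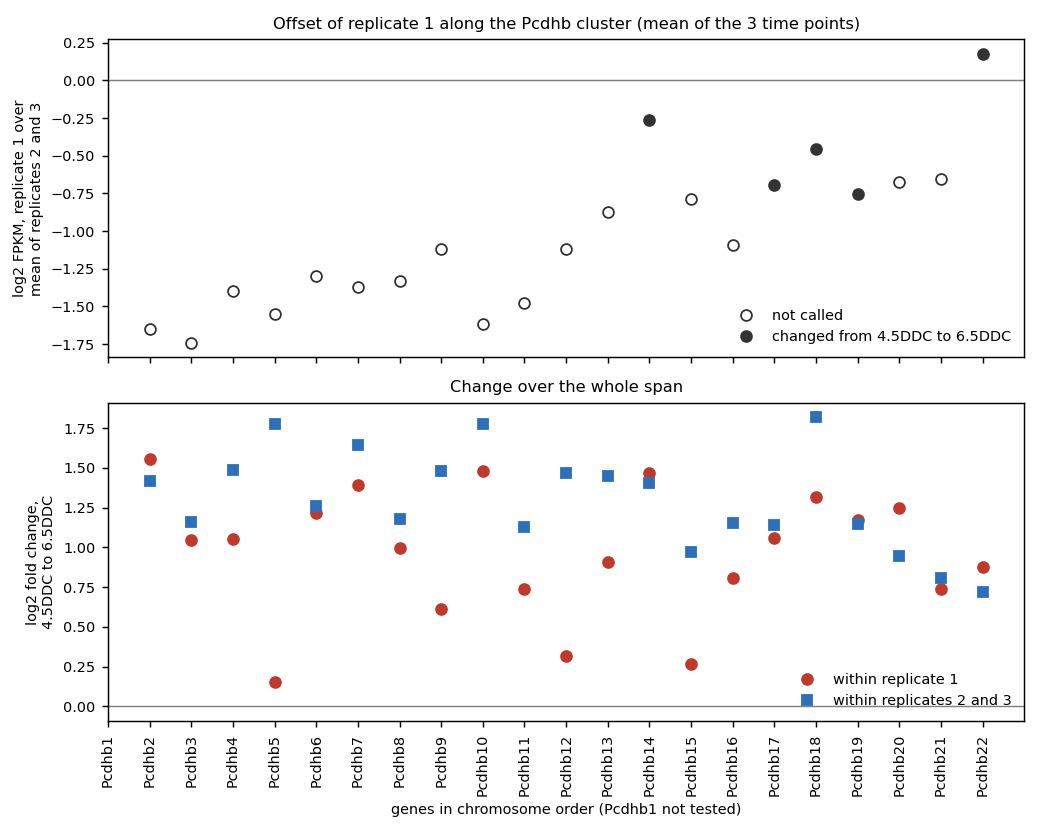
Upper panel, log2 ratio of FPKM in replicate 1 to the mean of replicates 2 and 3 for each tested Pcdhb gene in chromosome order; lower panel, log2 fold change from 4.5DDC to 6.5DDC within replicate 1 and within replicates 2 and 3. The 5 filled genes, which passed the edgeR test of all libraries without a block, lie in the last 11. Some other fits also call genes of the first 11. All changes in the lower panel are above 0.

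Replicate 1 was the lowest at each time point in 18 of 21 tested beta genes and in the Pcdhac1 row, and also in 7 of 9 neuron markers (all but Map2 and Isl1), 2 of 10 neural progenitor markers (Fabp7 and Nkx2-2) and 5 of 11 classical cadherins. Of 10 neuron markers listed 9 were in the tables, and their summed FPKM was 199, 472 and 346 in replicates 1, 2 and 3 at 4.5DDC. It was 186, 604 and 610 at 5.5DDC, and 370.2, 775 and 843 at 6.5DDC. Gap43, a growth cone protein, was the most abundant of them over all libraries together, and none was at 0. At 6.5DDC the mean of Stmn2 was higher (160 against 154 FPKM). In replicate 1, Elavl4 and Map2 were above Gap43 at 4.5DDC and 5.5DDC. From 4.5DDC to 6.5DDC the dendritic protein Map2 (log2 fold change 1.65, adjusted p = 0.0077) and the synaptic vesicle protein Syt1 (3.19, adjusted p = 0.0013) rose and the motor neuron factor Isl1 fell by 2.44 (adjusted p = 0.0017). Within replicates 2 and 3, Dcx, Stmn2 and Snap25 were called higher too. The summed FPKM of 10 neural progenitor markers, most of it from Vim, was 2239, 2614 and 2134 at 4.5DDC, 3109, 2779.6 and 3030.0 at 5.5DDC, and 3027, 2914 and 3067 at 6.5DDC. For the 17 classical cadherins, with Cdh2 the largest part, it was 209, 197 and 210 at 4.5DDC, 269.5, 276 and 282 at 5.5DDC, and 349, 295 and 292 at 6.5DDC. These 2 sums follow Vim and Cdh2 and hide the lower replicate 1 values of other genes in them. The part of neurons in the result for the clustered genes was not tested.

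**Figure D4:**
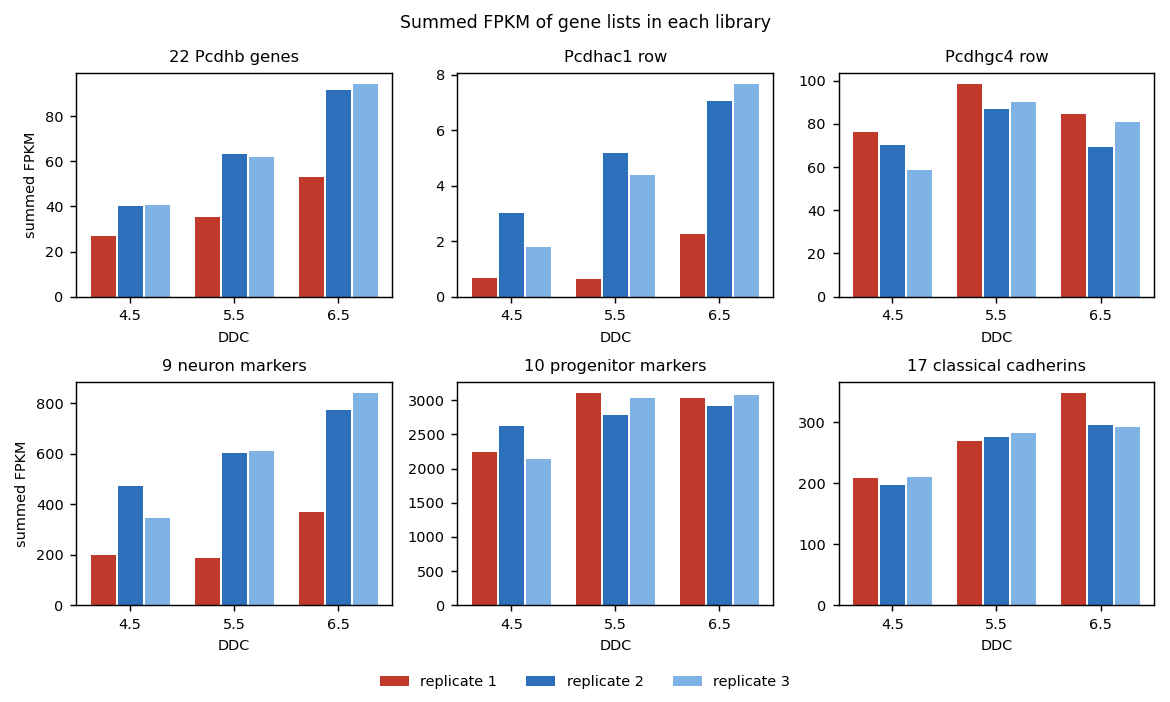
Summed FPKM (vertical axis) in each library against DDC for the 22 Pcdhb genes, the Pcdhac1 and Pcdhgc4 rows, 9 neuron markers, 10 neural progenitor markers and 17 classical cadherins; bars are single libraries coloured by replicate number. Replicate 1 is lowest for the Pcdhb genes, the Pcdhac1 row and the neuron markers at each time point, and not for the Pcdhgc4 row.

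The shorter intervals gave no calls among the members by edgeR with all libraries and no block, while other fits gave some. From 4.5DDC to 5.5DDC, 0 of 45 were called by edgeR (0.0746% of all genes), 10 had an unadjusted p under 0.05, all of them higher (7.81% of all genes higher and 7.62% lower), and limma voom called 0 (0.0746% of all genes). DESeq2 called 5 (3.36% of all genes), Cdh4, Cdh6, Cdh13, Pcdh8 and Pcdh10. With the replicate number as a block, 5 were called (1.44% of all genes), and they were the same 5. Their blocked log2 fold changes were 1.24, 0.74, 1.43, 0.98 and 1.68 in that order, with edgeR adjusted p-values of 0.030, 0.046, 0.023, 0.027 and 0.034. Without the block their adjusted p-values were 0.152, 0.141, 0.156, 0.152 and 0.152. All 5 had every 5.5DDC library above every 4.5DDC library. Within replicates 2 and 3 these 5 and Pcdh18 were called (3.31% of all genes). Without replicate 1 of 5.5DDC, 1 member, Cdh4, was called (0.101% of all genes).

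From 5.5DDC to 6.5DDC, 0 of 45 members were called by edgeR (0.224% of all genes), 8 were higher and 2 lower at an unadjusted p under 0.05 (7.81% and 10.7% of all genes), and DESeq2 and limma voom called 0 (4.49% and 0.251% of all genes). The block gave 0 (1.32% of all genes). Within replicates 2 and 3, Cdh13, Pcdh17 and Pcdhb9 were higher and Cdh1 and Cdh24 lower (4.97% of all genes). Median log2 fold changes were 0.08, 0.54 and 0.54 for the classical, non-clustered and clustered genes in the first interval and 0.19, 0.84 and 0.69 in the second. For Cdh4 and Cdh6 the estimate was larger in the first interval, and for Cdh24 most of it fell in the second (-0.20 and -1.05). The difference between the intervals was called for 0 of 45 members by edgeR with all libraries and no block (smallest adjusted p = 0.76). At an unadjusted p under 0.05 there was 1, the Pcdhgc4 row. That fit ignored the pairing of adjacent times, and other tools were not run for the difference.

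Partners of the members followed no single direction, and their counts stand against 9.21% of all genes higher and 9.53% lower. Of 6 catenins tested, which link classical cadherins to actin, Ctnna2, the neural alpha-catenin, rose and Ctnna1, its epithelial relative, fell. Ctnna2 measured 19.1, 16.3 and 15.1 FPKM at 4.5DDC and 44.8, 47.5 and 45.9 at 6.5DDC, with a log2 fold change of 1.44 (SE 0.13, adjusted p = 7.7e-04). Ctnna1 measured 143, 120 and 115 at 4.5DDC and 99.3, 81.8 and 78.7 at 6.5DDC, with -0.55 (SE 0.16, adjusted p = 0.042). Neither overlapped between these time points, and the calls held in 20 and 11 of 20 alternatives, with largest adjusted p-values of 0.0067 and 0.14. Beta-catenin, Ctnnb1, was the most abundant catenin with a log2 fold change of -0.21 (adjusted p = 0.24).

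Of 11 regulators that act in promoter choice of the clustered genes, 4 fell and 0 rose by edgeR over the span (9.53% and 9.21% of all genes). These were Ctcf, the loop-anchoring factor (-0.52, adjusted p = 0.032), the cohesin subunit Smc1a (-0.60, 0.035), the silencing factor Smchd1 (-0.70, 0.019) and the DNA methyltransferase Dnmt3b (-1.48, 0.0022). They were called in 13, 11, 17 and 20 of 20 alternatives, with adjusted p-values of at most 0.092, 0.10, 0.058 and 0.014. Their 6.5DDC libraries all lay below those of 4.5DDC. Rad21, another cohesin subunit, was the most abundant of the list and was not called (-0.27, adjusted p = 0.24). Of 5 tested genes of the proteases that shed cadherins and protocadherins, 2 rose and 0 fell. They were the sheddase Adam10 (0.70, adjusted p = 0.011) and the gamma-secretase subunit Ncstn (0.68, adjusted p = 0.0077). Ncstn was the most abundant over all libraries together, while at 6.5DDC the mean of Adam10 was higher (97.3 against 94.6 FPKM). Of 9 WAVE complex genes tested, Cyfip2 rose (0.996, adjusted p = 0.018) and Wasf3 fell (-0.46, adjusted p = 0.041), and the most abundant was Brk1. These 4 calls held in 19, 20, 16 and 7 of 20 alternatives. Among 14 tested genes of the wider cadherin superfamily, 1 rose, Clstn3 (2.21, adjusted p = 0.028, called in 12 of 20 alternatives with at most 0.16), although its time points overlapped. Clstn1 was the most abundant of that list.

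Of 5 tested repressors of Cdh1, Twist1 rose (0.74, adjusted p = 0.028, at most 0.079 over 20 alternatives) and Tcf3 fell (-1.50, adjusted p = 0.016, at most 0.069). Tcf3 was the most abundant over all libraries together. At 6.5DDC its mean of 17.1 FPKM was below those of Zeb1 (27.5) and Zeb2 (25.9). Genes that mark epithelium or endoderm, which would accompany Cdh1 outside the neural tube, summed to between 91.1 and 163 FPKM, most of it from Foxa2, which the floor plate also uses. Of 6 tested 0 were called over the span by edgeR with all libraries and no block, by DESeq2 or by limma voom. Krt8 was called lower in 2 alternatives and Krt18 in 1, and Sox17 and Foxa2 were called higher in 1 each. The keratins Krt18 (21.6 to 58.6 FPKM) and Krt8 (8.63 to 15.5) were present in every library, while the pan-epithelial marker Epcam reached at most 1.28 FPKM and Afp at most 0.569.

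The endothelial cadherin Cdh5 measured 0.266, 2.78 and 2.70 FPKM at 4.5DDC, 0.405, 4.51 and 3.96 at 5.5DDC, and 4.17, 3.30 and 3.05 at 6.5DDC. In replicate 1 it was far below the others at the first 2 time points and above them at 6.5DDC, as was Pcdh12. The 6 endothelial markers summed to 1.30, 1.40 and 1.71 FPKM at 4.5DDC, 1.54, 2.29 and 2.16 at 5.5DDC, and 6.52, 3.81 and 2.98 at 6.5DDC. The highest sum, in replicate 1 of 6.5DDC, came largely from Tek (2.57) and Flt1 (2.002), while Kdr was the lowest of 6.5DDC there (1.45 against 2.04 and 1.93). Of 4 tested, Kdr, the most abundant (1.76, adjusted p = 0.012), and Flt1 (2.22, adjusted p = 0.015) rose over the span, while Cldn5 was listed at 0 in all 9 libraries. The 8 markers of neural crest or mesenchyme, given beside Cdh11, summed to 9.86, 15.5 and 9.56 FPKM at 4.5DDC, 16.6, 28.9 and 27.2 at 5.5DDC, and 20.3, 38.9 and 51.7 at 6.5DDC. Col3a1, the most abundant over all libraries together, measured 0.235, 4.72 and 1.74, then 0.690, 9.86 and 9.39, then 2.04, 21.4 and 30.4 FPKM. Like Cdh11 it was lowest in replicate 1 at each time point. Twist1 had higher means at 4.5DDC (4.98 against 2.23 FPKM) and 5.5DDC (8.20 against 6.64), and was higher in replicate 1 at each time point. Of 6 tested, Twist1 alone was called by edgeR with all libraries and no block. Pdgfra was called in 3 of 20 alternatives, Col3a1 in 2 of 20 and Prrx1 in 1 of 18, all of them higher, and Sox10, which defines neural crest, reached at most 0.0377 FPKM. The part of these cell types in the levels of Cdh5, Pcdh12 and Cdh11 was not tested.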

How the data were processed

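9 libraries of polyadenylated RNA from Prominin-1-sorted cells were analysed, 3 per time point, grouped by the sample labels. Per the labels, the submitters' processing notes name TopHat2 2.0.4, HTSeq 0.6.1 and Cufflinks 2.1.1 and GRCm38. The authors counted reads per gene with HTSeq and deposited these values without normalization, in the form of an expected count, fractional for 98 of 38197 symbols (1 member, Pcdh15). The fractions are not explained, and all values were rounded before testing. Whole counts had been assumed when the tests were chosen. Levels are the FPKM deposited by the authors. Their log2 table was not used. How the authors treated strand and ambiguous reads is not stated.

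Counts were filtered with filterByExpr (14742 genes kept), scaled by TMM (factors 0.951 to 1.04) and fitted in edgeR 4.0.16 (R 4.3.3) with the time point as factor, 6 residual degrees of freedom and Benjamini-Hochberg adjustment over all genes at 0.05. The procedure was tested on simulated data with large changes only. Alternatives were other scalings and filters, DESeq2 1.42.0, limma 3.58.1 with voom and on log2 FPKM with pseudocounts of 1 and 0.1, the 6 libraries compared, a replicate block, each library left out, each replicate set and cluster sums. Same-numbered libraries had correlated deviations from their time point mean (4.5DDC and 5.5DDC: 0.743, 0.386, 0.452; 5.5DDC and 6.5DDC: 0.454, 0.367, 0.197), and the number was taken to pair adjacent times. Libraries of unlike number gave 0.225 to 0.406 among replicates 2 and 3 and -0.653 to -0.245 with replicate 1, so it separates replicate 1 but not replicates 2 and 3. Within-replicate-1 changes are differences of log2 CPM. Standard errors (SE) are the absolute log2 fold change divided by the square root of the F statistic of the edgeR test. Positions and exons come from GENCODE M21. Tables and plots used Python 3.11.15, pandas 2.3.3, numpy 2.4.6 and matplotlib 3.10.9.

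Members and gene lists were chosen with earlier results of these data known. Named genes are the called members, the 2 most abundant of each class, the largest rise and fall per class, called or most abundant partners, and markers beside a member. Totals between 11066568 and 25506193 put the floor of 3 counts at 0.118 to 0.271 CPM. Cdh15, Dchs2 and Tubb3 were not analysed here.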

Additional observations from a re-analysis of the deposited data

Results flagged for a closer look

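Cdh11 and the Pcdhgc4 row moved in opposite directions in the 2 intervals in every same-numbered pair of libraries. For Cdh11 the log2 changes in replicates 1, 2 and 3 were -0.39, -0.09 and -0.10 from 4.5DDC to 5.5DDC and 0.70, 0.27 and 0.10 from 5.5DDC to 6.5DDC, and the difference between the intervals was 0.40 (SE 1.05, edgeR adjusted p = 0.93). For the Pcdhgc4 row they were 0.35, 0.30 and 0.51, then -0.15, -0.27 and -0.19, with a difference of -0.59 (SE 0.23, adjusted p = 0.76). Neither difference passed the test, which used all libraries without a replicate block and so ignored the pairing of same-numbered libraries.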

How the results depend on the processing

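Each of the 12 members that rose from 4.5DDC to 6.5DDC was refitted in 20 alternatives, all drawn from the same 9 libraries. Of these 240 results, 219 kept the call, 21 lost it and 0 turned its sign, and all 12 members were positive within replicate 1. Of 158 such results for 8 other named members, 14 gained a call and 8 turned sign. The count of members changed over the span was 19 by DESeq2, 33 with the replicate block (23.2% of all genes) and 33 within replicates 2 and 3, against 12, and between 8 (without replicate 2 of 4.5DDC, 7.61% of all genes) and 22 (without replicate 1 of 6.5DDC, 20.7%) with 1 library left out. In the first interval it was 5 by DESeq2, 5 with the replicate block, 6 within replicates 2 and 3 and 0 to 1 with 1 library left out, against 0. In the second it was 5 within replicates 2 and 3 and 0 with the block. Classical cadherins went from 3 to 5 within replicates 2 and 3 and were 2 to 3 with 1 library left out. Non-clustered protocadherins went from 3 to 7 with the block and to 7 within replicates 2 and 3. Clustered protocadherins went from 5 to 11 by DESeq2, 21 with the block and 20 within replicates 2 and 3, and ranged from 3 to 14 with 1 library left out. Other scalings and filters, limma and the 6 libraries compared gave 11 to 14 members over the span. The replicate number did not pair 4.5DDC with 6.5DDC (correlations of 0.383, -0.0396 and -0.215 for the 3 same-numbered pairs), and the block changed no call from 5.5DDC to 6.5DDC. With the block over the span, the neuron markers called higher went from 2 to 5, those of neural crest or mesenchyme from 1 to 4, and those of epithelium or endoderm from 0 to 1 higher and 1 lower. Signs turned for members and medians near 0. Cdh11 became -0.26, -0.14 and -0.03 without replicate 1 of 4.5DDC, replicate 2 and replicate 3 of 6.5DDC, and reached 0.47 without replicate 1 of 6.5DDC. The classical median became -0.26, -0.14 and -0.14 without the same 3, and reached 0.45 without replicate 1 of 6.5DDC. Pcdh1 became -0.0024 and -0.0048 by limma (FPKM plus 1 and plus 0.1, log2), and -0.24, -0.014 and -0.29 without replicate 1 or 3 of 4.5DDC and replicate 3 of 6.5DDC, with 0.54 the highest, without replicate 2 of 4.5DDC. The non-clustered median was 0.79 and 0.86 and the clustered one 0.82 and 1.15 in the same limma fits. The cause was not tested. At these depths 13 members could not be tested.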

Other observations

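Prom1, the surface protein used for the sort, measured 89.3, 62.8 and 85.2 FPKM at 4.5DDC and 207, 187 and 154 at 6.5DDC, and rose by 1.19 on the log2 scale (SE 0.18, edgeR adjusted p = 0.0036). Of the other neural progenitor markers tested, Sox3 (-1.80, adjusted p = 0.033) and Nkx6-1 (-1.14, adjusted p = 0.022) fell. The 8 pluripotency markers summed to between 2.44 and 6.49 FPKM, most of it Klf4, with 0 of 2 tested called. The 6 muscle markers summed to between 0.1997 and 1.05 FPKM, most of it Des, with 0 of 1 tested called.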
